A study of Drosophila melanogaster with 4 samples.

Results

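Antioxidant enzymes remove the reactive oxygen species that respiration and other oxidations leave in cells. Superoxide dismutases turn superoxide into hydrogen peroxide, and catalase and the peroxiredoxins then break hydrogen peroxide down. Peroxiredoxins are recharged by thioredoxin, which thioredoxin reductase keeps reduced with NADPH, and in flies this system also keeps glutathione reduced because they lack glutathione reductase. Glutathione itself is made from amino acids, and glutamate-cysteine ligase, an enzyme of a catalytic and a modifier subunit, sets the rate. The genes described here were chosen by symbol and encode 3 superoxide dismutases (Sod1, Sod2, Sod3), catalase (Cat), 2 peroxiredoxins (Prx3, Prx5), thioredoxin (Trx-2), thioredoxin reductase (Trxr-1) and the subunits of glutamate-cysteine ligase (Gclc, Gclm). All 10 have a row among the 15682 genes of the table, 2 of them (Trxr-1 and Trx-2) under a newer symbol in the reference, and 9 were among the 9049 genes expressed highly enough to test.

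Poly(A) RNA of Drosophila melanogaster heads was sequenced in 2 libraries of flies expressing MJDtr-78Q and 2 control libraries of w1118 flies that do not express it. MJDtr-78Q is a shortened form of the human protein ataxin-3 whose polyglutamine stretch is expanded, used to model Machado-Joseph disease. w1118 is a white-eyed strain that carries a mutation of the white gene. The labels give no driver or cell type for the transgene, no background strain for the MJDtr-78Q flies, and no age, sex or number of flies, and they do not say whether the libraries of a group came from separate flies, so p-values measure only the spread between these libraries, which may be technical.

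After back-transformation the counts added up to 3111393 to 3111583 in MJDtr-78Q libraries and 7147717 to 7147867 in control libraries. Values below are log2(count + 1) after quantile normalization over the 4 libraries, and differences are MJDtr-78Q minus control on that scale. All 4 neuron, 5 photoreceptor and 5 glia markers that were in the table were expressed, and 3 of the 5 testis markers were at 0 in every library. The summed counts of the photoreceptor markers were 66565 and 51401 in MJDtr-78Q libraries, against 100379 and 97981 in control libraries. Those of the muscle markers were 51776 and 22851 in MJDtr-78Q libraries, against 24413 and 20493 in control libraries. The muscle sum of MJDtr-78Q library 2 thus fell between those of the controls. Mhc was at 15.40 and 13.64 in MJDtr-78Q libraries, against 14.06 and 13.71 in control libraries, and overlapped. TpnC4 overlapped too (difference 0.68). Act88F (1.64) and up (0.36) were higher in MJDtr-78Q without overlap, and neither passed limma's test over all tested genes. The photoreceptor markers did not move together. Both MJDtr-78Q libraries lay below both controls for ninaE (difference -1.09), trpl (-3.03) and Arr2 (-1.34). The groups overlapped for trp (0.24) and ninaC (-0.01). For ninaE, trpl and Arr2 the limma adjusted p over all tested genes was 0.595, 0.512 and 0.595. Of all tested genes 15.5% had both MJDtr-78Q libraries below both controls, and 14% had both above. The part of these photoreceptor and muscle markers in the results below was not tested. In whole heads fewer cells of a type and less RNA per cell cannot be told apart. The MJDtr-78Q libraries correlated less with each other (Pearson's r = 0.910 across genes) than the controls did (r = 0.9745).

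None of the 9 tested antioxidant enzyme genes passed the test, which does not show that they were alike in both groups: the 95% intervals of 5 stayed short of a 2-fold change, those of 3 (Sod1, Sod2 and Gclm) covered a 2-fold fall and that of Prx3 a 2-fold rise. By limma over all genes, 0 of the 9 and 0 of the 9049 tested genes (0%) had an adjusted p under 0.05. At an unadjusted p under 0.05 there were 0 of the 9, against 532 of all tested genes (5.88%). The median difference of the 9 genes was -0.05, beside -0.02 over all tested genes, with 4 genes above 0 and 5 below. Gclm lay farthest from 0, and it was the 1 gene of the 9 whose groups did not overlap. Over all tested genes 15.5% had both MJDtr-78Q libraries below both controls, 14% had both above, and 29.5% did not overlap in one direction or the other, so 1 of 9 is no more than the background. In 8 of the 9 genes the MJDtr-78Q libraries were farther from each other than the group means were.

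**Figure D1:**
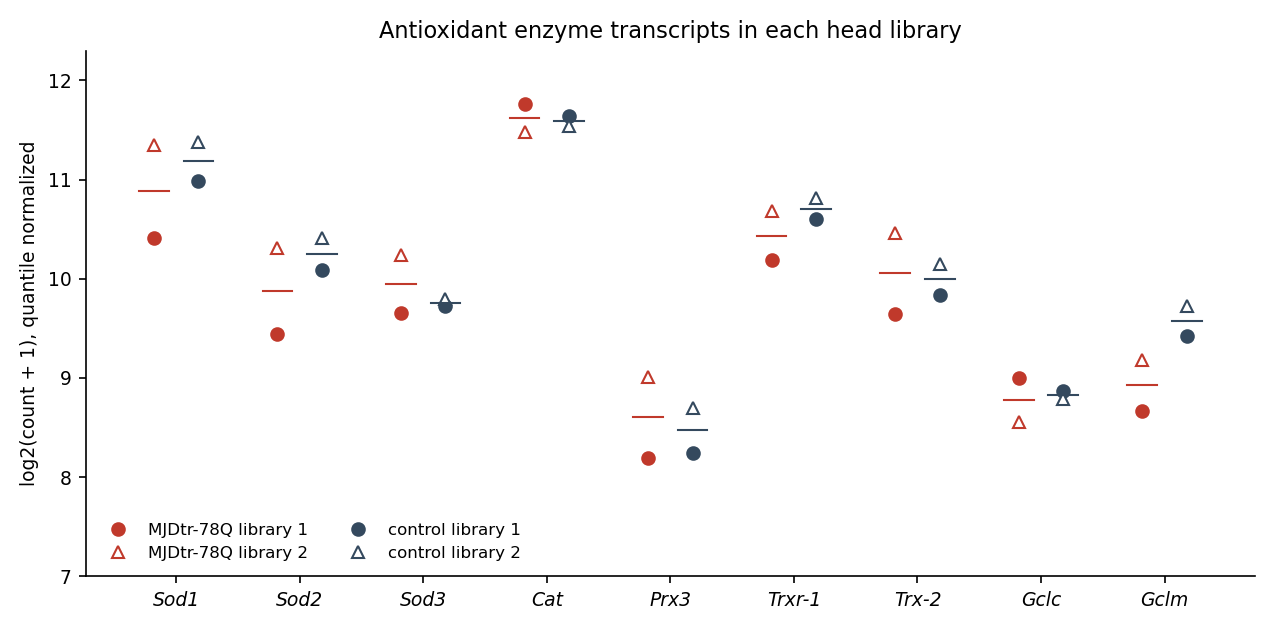
The plot gives log2(count + 1) after quantile normalization (vertical axis) of the 9 tested antioxidant enzyme genes in each MJDtr-78Q and control library, with a bar at the mean of each group (n = 2). Gclm is the gene whose groups lie apart, at 8.67 and 9.18 in MJDtr-78Q libraries and 9.42 and 9.73 in control libraries.

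The superoxide dismutases differ in where they act. Sod1 (FBgn0003462, 3L, positions 11105380 to 11106840, as deposited like all positions here), the copper and zinc enzyme of the cytosol, was at 10.41 and 11.35 in MJDtr-78Q libraries, against 10.99 and 11.38 in control libraries. MJDtr-78Q library 1 was the low one, library 2 lay among the controls, and the groups overlapped. The difference was -0.30 (SE 0.39, 95% interval -1.32 to 0.71). It turned to 0.17 without MJDtr-78Q library 1. Sod2 (FBgn0010213, 2R, positions 12660375 to 12661440), the manganese enzyme of the mitochondrial matrix, had the same shape, with 9.44 and 10.31 in MJDtr-78Q libraries and 10.09 and 10.41 in control libraries. Its difference was -0.37 (SE 0.37, 95% interval -1.33 to 0.58), and 0.057 without MJDtr-78Q library 1. Sod3 (FBgn0033631, 2R, positions 7267848 to 7271613), the secreted copper and zinc enzyme, was at 9.65 and 10.23 in MJDtr-78Q libraries, against 9.72 and 9.79 in control libraries, so that the controls lay between the MJDtr-78Q libraries. It differed by 0.19 (SE 0.29, 95% interval -0.56 to 0.94), and by -0.11 without MJDtr-78Q library 2. The intervals of Sod1 and Sod2 cover a 2-fold fall and that of Sod3 does not reach 2-fold.

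After their values were seen, 4 ratios of transcripts within a library were looked at besides that of Gclm to Gclc, 5 in all. The groups lay apart in 3 of the 5, beside 34% of all pairs of tested genes and 17 of the 36 pairs of the 9 genes. Sod1 and Sod2 kept nearly the same ratio in each library. On the log2 scale Sod1 exceeded Sod2 by 0.97 and 1.04 in MJDtr-78Q libraries and by 0.90 and 0.97 in control libraries. The groups differed by 0.07 and lay barely apart (exact permutation p = 0.333, two-sided, 0.556 adjusted over the 5 ratios). The gap between the MJDtr-78Q libraries, 0.94 for Sod1 and 0.87 for Sod2, was shared by both genes. The ratio of Sod1 to Cat overlapped, at -1.35 and -0.13 in MJDtr-78Q libraries, against -0.65 and -0.16 in control libraries (exact permutation p = 1).

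Catalase (Cat, FBgn0000261, 3L, positions 18815703 to 18821288), the peroxisomal enzyme that splits hydrogen peroxide into water and oxygen, had the smallest standard error of the 9. It was at 11.76 and 11.48 in MJDtr-78Q libraries and at 11.64 and 11.54 in control libraries. The control values lay between the MJDtr-78Q values. The difference was 0.03 (SE 0.23), with a 95% interval from -0.58 to 0.64, or 0.671 to 1.56 times the control level, which stays short of a 2-fold change either way. Its sign turned without MJDtr-78Q library 1 (-0.11) and without control library 2 (-0.02).

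Prx3 (FBgn0038519, 3R, positions 13370949 to 13372231), a mitochondrial peroxiredoxin, was at 8.19 and 9.01 in MJDtr-78Q libraries, against 8.25 and 8.70 in control libraries. The lowest and the highest value were both in MJDtr-78Q libraries. It differed by 0.13 (SE 0.37, 95% interval -0.83 to 1.09), an interval that covers a 2-fold rise, and by -0.28 without MJDtr-78Q library 2 and -0.10 without control library 1. Sod2 makes hydrogen peroxide in the compartment where Prx3 removes it, and their ratio differed most among the 3 ratios whose groups lay apart. On the log2 scale Sod2 exceeded Prx3 by 1.245 and 1.29 in MJDtr-78Q libraries and by 1.84 and 1.71 in control libraries. The groups lay apart, and their means differed by -0.51, with SDs of 0.04 and 0.09 (n = 2 each). The exact permutation p was 0.333, two-sided, the smallest that 2 libraries against 2 can give, and 0.556 adjusted over the 5 ratios. Their exonic lengths are alike, at 1015 and 1017 bp.

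Prx5 (FBgn0038570, 3R, positions 13991163 to 13992967), another peroxiredoxin, is listed at 0 in all 4 libraries. In the Ensembl annotation 100% of its exonic bases are shared with another gene on the same strand. In the deposited coordinates it overlaps CG7215 by 667 bp, 36.95% of the Prx5 span, introns included. That is less than the 1449 bp of exon shared in the Ensembl annotation. CG7215 is also listed at 0 in all 4 libraries. Of the genes in the table with all exonic bases shared in this way, 324 of 383 (84.6%) were at 0 in every library, against 2831 of 13589 (20.8%) of those that share none. The 0 of Prx5 is therefore not read as absence of its transcript, and no difference is given. The other 9 genes share no exonic base with a gene on the same strand. Trxr-1 shares 13.8% of its exonic bases with a gene on the other strand, and whether strand was used in counting is not given in the sources used here.

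Neither thioredoxin gene had groups that lay apart. Trx-2 (FBgn0040070, 2L, positions 9613164 to 9616048), the thioredoxin that passes electrons to peroxiredoxins, was at 9.65 and 10.46 in MJDtr-78Q libraries, against 9.84 and 10.15 in control libraries. The controls lay between the MJDtr-78Q values, and the difference was 0.06 (SE 0.36, 95% interval -0.86 to 0.99). It was -0.35 without MJDtr-78Q library 2 and -0.10 without control library 1. Trxr-1 (FBgn0020653, X, positions 8136516 to 8142072), the reductase of thioredoxin, was at 10.19 and 10.68 in MJDtr-78Q libraries, against 10.61 and 10.81 in control libraries. MJDtr-78Q library 1 was the lowest and library 2 lay between the controls. The difference was -0.27 (SE 0.28, 95% interval -0.99 to 0.45), and it stayed below 0 with each library left out (-0.53 to -0.02). The intervals of both genes stay just short of 2-fold. The log2 ratio of Trx-2 to Trxr-1 was -0.54 and -0.22 in MJDtr-78Q libraries, against -0.77 and -0.66 in control libraries. The groups lay apart, and their means differed by 0.33 (exact permutation p = 0.333, 0.556 adjusted over the 5 ratios). The exonic lengths of this pair are unlike, at 1357 and 3147 bp.

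Of the subunits of glutamate-cysteine ligase, neither passed the test. Gclm (FBgn0046114, 3R, positions 18511021 to 18512249), the modifier subunit, was at 8.67 and 9.18 in MJDtr-78Q libraries, against 9.42 and 9.73 in control libraries. Both MJDtr-78Q libraries lay below both controls. The means were 8.93 ± 0.36 in MJDtr-78Q and 9.57 ± 0.21 in control libraries (SD, n = 2 each). Its difference of -0.65 (SE 0.29, 95% interval -1.40 to 0.10), 0.638 times the control level, did not pass the test (limma unadjusted p = 0.0774, adjusted p = 0.948), and 5.47% of all tested genes had a difference as low or lower. It was below 0 with each library left out, at -0.39 without MJDtr-78Q library 1 and -0.90 at the other end of the range, where library 2 was missing. As deposited, with no scaling between groups, Gclm was at 8.08 and 8.61 in MJDtr-78Q libraries and 9.997 and 10.31 in control libraries, a difference of -0.57 relative to the median gene. Each of the other 8 tested genes had a limma adjusted p that rounds to 1.

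Gclc (FBgn0040319, X, positions 7996612 to 8010177), the catalytic subunit, was at 8.998 and 8.55 in MJDtr-78Q libraries, against 8.86 and 8.79 in control libraries. The controls lay between the MJDtr-78Q libraries, and here library 1 was the higher one. The difference was -0.05 (SE 0.26, 95% interval -0.73 to 0.63), which does not reach 2-fold. Its sign depended on the scaling, at 0.034 with TMM or upper-quartile scaling and 0.025 with the deposited scaling relative to the median gene, and it was 0.17 without MJDtr-78Q library 2. Taken within a library, the log2 ratio of Gclm to Gclc was -0.33 and 0.63 in MJDtr-78Q libraries, against 0.56 and 0.94 in control libraries. MJDtr-78Q library 1 stood alone below 0, the groups overlapped, and the difference of -0.60 gave an exact permutation p of 0.667 (two-sided).

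**Figure D2:**
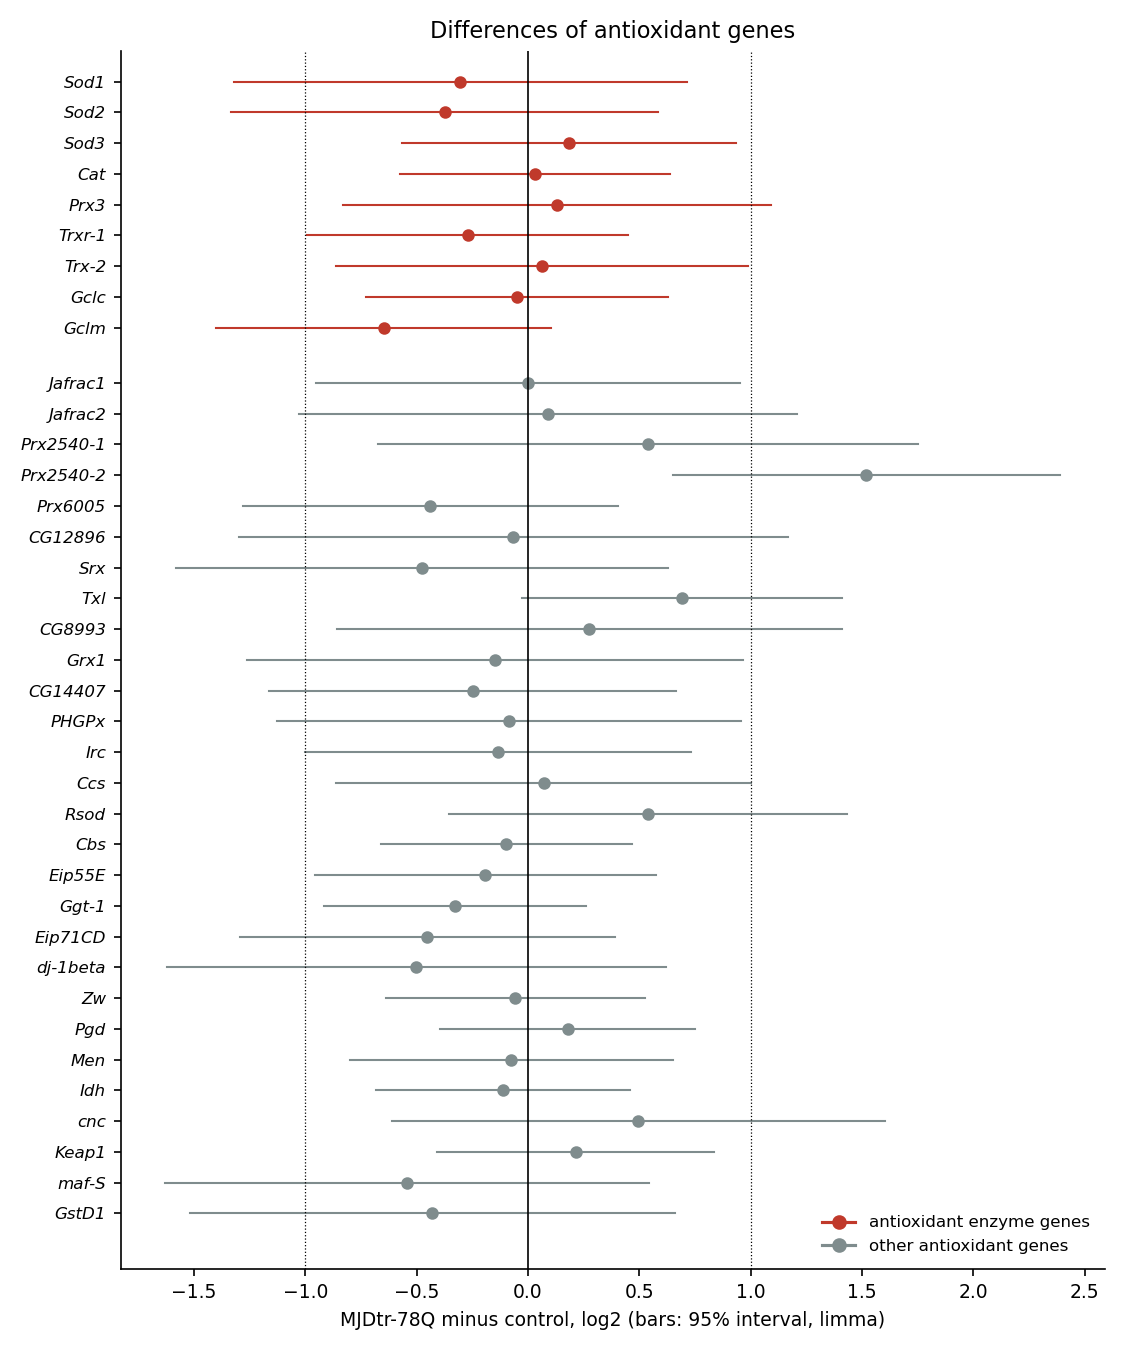
The plot gives the log2 difference of MJDtr-78Q minus control (horizontal axis) with its 95% interval from limma for the 9 tested antioxidant enzyme genes and for the other tested antioxidant genes (dhd, near 0 in 3 libraries, is left out), with dotted lines at 2-fold. All 9 intervals of the antioxidant enzyme genes include 0, and that of Gclm runs from -1.40 to 0.10.

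The gaps between libraries of a group had an order of their own. In 7 of the 9 genes library 2 was above library 1 in both groups, in 2 genes (Cat and Gclc) it was below in both, and in all 9 the gap was larger between the MJDtr-78Q libraries. Across the 8641 tested genes with a known exonic length, this gap followed length. Genes of up to 1000 bp were higher in MJDtr-78Q library 2 than in library 1 by a median of 0.84, and those over 4000 bp were lower by a median difference of -0.79, while the medians for the controls were 0.39 and -0.28. The gap of Sod1 (735 bp) between MJDtr-78Q libraries, 0.94, stood beside a median of 0.83 for 730 genes of like length. Gclc (4402 bp) at -0.45 stood beside -0.51 for 1258 genes. Trxr-1 (3147 bp) was unlike genes of its length, at 0.50 beside -0.19, as was Cat (1993 bp), at -0.28 beside 0.19. Genes over 1000 and up to 2000 bp, the class of Gclm (1505 bp), had a median difference between groups of -0.10, against -0.65 for Gclm, and after removal of the length trend Gclm differed by -0.60 (limma adjusted p = 0.203).

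**Figure D3:**
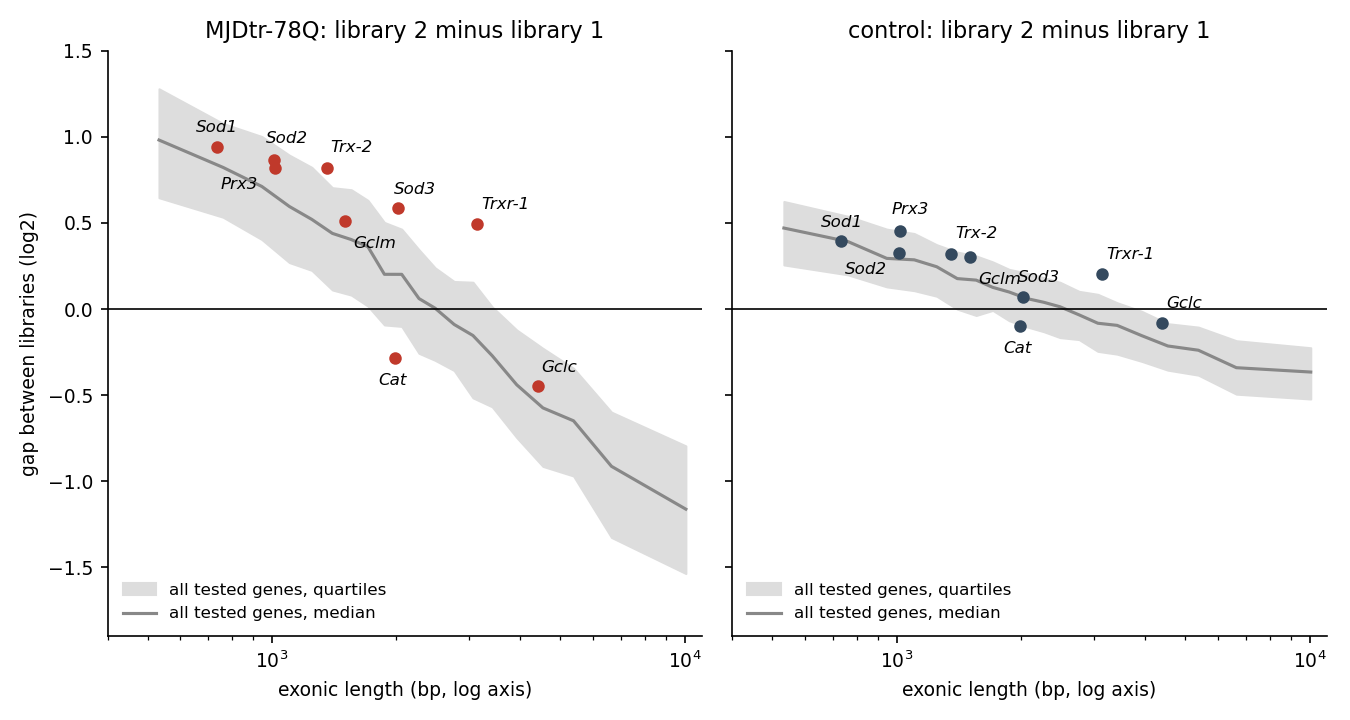
The plots give the log2 gap of library 2 minus library 1 in MJDtr-78Q (left) and control (right) against exonic length in bp on a log axis, for the 9 antioxidant enzyme genes (points) and for all tested genes with a known length (line, median, and band, quartiles, in classes of length). The medians cross 0 in both groups, and Sod1, at 0.94 in MJDtr-78Q and 0.39 in control, lies near the line.

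Levels of different genes were compared per kilobase of exonic length. Sod1 was the most abundant of the 9 in every library, with 1849 and 3553 counts per kilobase in MJDtr-78Q libraries and 2761 and 3627 in control libraries. Catalase came next, at 1744 and 1434 in MJDtr-78Q libraries and 1601 and 1494 in control libraries. They were followed by Sod2, Trx-2, Trxr-1, Sod3, Gclm, Prx3 and Gclc by the mean over the 4 libraries. Gclc was the lowest, at 116 and 85.0 counts per kilobase in MJDtr-78Q libraries and 106 and 100 in control libraries. The ranges over libraries lay apart between Sod1 and Cat, Cat and Sod2, Trx-2 and Trxr-1, and Prx3 and Gclc. They overlapped between Sod2 and Trx-2, and between neighbours among Trxr-1, Sod3, Gclm and Prx3, where each neighbouring pair kept its order in 2 of 4 libraries. Sod3 lay above Trxr-1 and Gclm, and Prx3 above Gclm, in both MJDtr-78Q libraries. Each of these orders was reversed in both control libraries, which was not tested. Trxr-1 lay above Gclm and Prx3, and Sod3 above Prx3, in every library. Both MJDtr-78Q libraries had Gclm (270 and 386 counts per kilobase) below both controls (456 and 562), and above Gclc in each library.

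**Figure D4:**
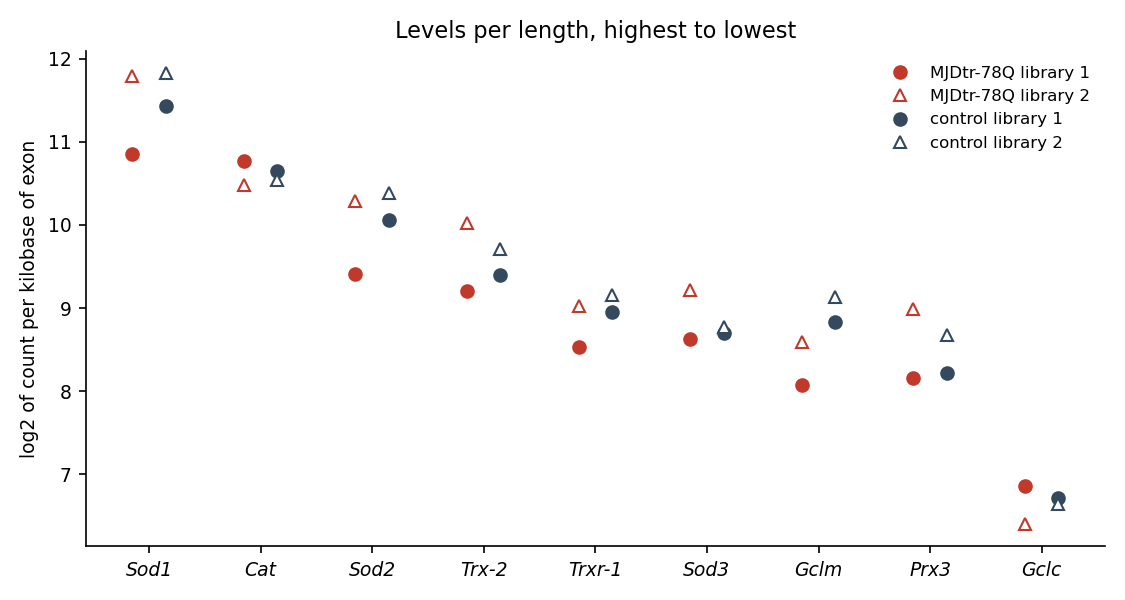
The plot gives the log2 of the count per kilobase of exonic length (vertical axis) of the 9 tested antioxidant enzyme genes in each library, ordered by their mean. Sod1 is highest and Gclc lowest in all 4 libraries, and Trxr-1, Sod3, Gclm and Prx3 overlap.

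In the same fit the other genes of antioxidant defence gave no call. Of 38 listed, 37 were in the table, 29 were tested, and 0 passed limma's test over all genes. Their median difference was -0.08, with 12 above 0 and 17 below. In the Keap1-cnc pathway, through which the transcription factor cnc (the fly Nrf2) and its partner maf-S switch on antioxidant genes while Keap1 restrains cnc, 0 of 4 genes passed. The gene cnc was at 10.52 and 9.43 in MJDtr-78Q libraries, against 9.65 and 9.32 in control libraries, a difference of 0.50 (SE 0.43) that was -0.051 without MJDtr-78Q library 1. Keap1 differed by 0.21 (SE 0.24), maf-S by -0.54 (SE 0.42) and GstD1, a glutathione transferase gene often used as a readout of cnc, by -0.43 (SE 0.42), or 0.11 without MJDtr-78Q library 1. Without that library maf-S was at -0.037, and without MJDtr-78Q library 2 at -1.04.

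Among genes for NADPH supply, Pgd, of the pentose phosphate pathway, differed by 0.18 (SE 0.22), Idh by -0.11 (SE 0.22) and Men, malic enzyme, by -0.08 (SE 0.28), with a list median of -0.07 over 4 genes. The 3 tested genes of cysteine supply and glutathione breakdown had a median of -0.19, with Ggt-1 at -0.33 (SE 0.23), Eip55E at -0.19 (SE 0.30) and Cbs at -0.10 (SE 0.22). Gss1 and Gss2, the genes of glutathione synthetase, are listed at 0 in all 4 libraries. They lie close together on X and have the same exonic length, 2838 bp. How reads that match both genes were counted is not given, so their 0 is not read as absence of the transcripts. The methionine sulfoxide reductase gene Eip71CD and the DJ-1 gene dj-1beta differed by -0.45 (SE 0.33) and -0.50 (SE 0.43), the 2 tested genes of a list of 4. Of other peroxidases and SOD-related genes, Rsod differed by 0.54 (SE 0.34), Irc, the immune-regulated catalase, by -0.14 (SE 0.33) and PHGPx, a glutathione peroxidase homolog whose span lies within that of Strip, by -0.09 (SE 0.40), with a median of -0.01 over 4 genes. Among other thioredoxins and glutaredoxins, Txl, a thioredoxin-like protein, differed by 0.69 (SE 0.28) and CG14407, a glutaredoxin, by -0.25 (SE 0.35), with a median of 0.28 over 5 tested genes. That list holds dhd at 2.33 (SE 2.09), which was expressed in 1 library, and without dhd, a choice made after its values were seen, the median of the other 4 was 0.06. The 7 other peroxiredoxin and sulfiredoxin genes had a median of 7.4e-05, with Prx6005 at -0.44 (SE 0.32) and Prx2540-1 at 0.54 (SE 0.47). Within that list Prx2540-2 stood farthest from 0, at 1.52 (SE 0.34, limma unadjusted p = 0.00667, adjusted p = 0.612).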

How the data were processed

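The deposited table gives log2 of a count plus 1 for 15682 genes in 4 libraries, as read from its values, and the authors' quantile normalization within each group, not between groups, is likewise read from the values. Tools in the submitters' processing notes, given without roles, are TopHat2 2.0.10, HTSeq 0.6.1, Bowtie, cutadapt 1.2.1 and CASAVA 1.8.2, and the genome build is not given in the sources used here. Positions are those of the deposited table. The totals are those of normalized values, so the true depth and the counting error per gene are unknown.

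Libraries were quantile normalized together, and genes with a mean back-transformed value of at least 10 were tested with limma 3.58.1 in R 4.3.3 (intensity trend, two-sided, Benjamini-Hochberg over all 9049 genes). Exonic lengths and shared exons came from Ensembl release 115 by gene ID, with no coordinates taken from it, and symbols from a reference table, which matched 15002 IDs. The antioxidant genes and lists were chosen with earlier results of these data known. Named genes were all 10 antioxidant enzyme genes, the 4 Keap1-cnc genes and up to 3 of each other list by increasing p. The steps were tested on simulated data with known changes but without the length trend of these libraries. That test does not show how often real changes would be found here. Alternatives were other pseudocounts, filters, scalings and variance priors, a length correction, the replicate number as a block and each library left out. TMM and upper-quartile factors were computed by their formulas, and scaling alternatives were read relative to the median gene.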

Additional observations from a re-analysis of the deposited data

How the results depend on the processing

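No antioxidant enzyme gene passed limma's test under any planned setting. With the deposited scaling and no shift between groups, which was added after seeing the data, 6742 genes and 8 of the 9 antioxidant enzyme genes passed, with the median gene at -1.23. Over all genes 6 passed after length correction, 387 with the replicate number as a block, none of them among the 9, and 0 to 2 with a library left out (2 without control library 1). Same-numbered libraries deviated together (r = 0.536 across genes), but the labels do not say that a number marks a batch. With that replicate block Prx2540-2 passed (adjusted p = 0.00484). The median of the 9 ran from -0.35 to 0.057 with a library left out, and the ratio of Gclm to Gclc from -1.07 to -0.12.

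Of 99 differences of the 9 genes under other settings, 3 changed sign, all of Gclc (0.034 with TMM and upper-quartile scaling, 0.025 with the deposited scaling, each relative to the median gene). With a library left out 10 of 36 changed sign. For Gclm a change was hardly possible, as both its MJDtr-78Q values lay below both controls. The ranges were -0.78 to 0.17 for Sod1, -0.81 to 0.057 for Sod2, -0.11 to 0.48 for Sod3, -0.11 to 0.17 for Cat, -0.28 to 0.54 for Prx3, -0.35 to 0.48 for Trx-2 and -0.27 to 0.17 for Gclc, while Trxr-1 (-0.53 to -0.02) and Gclm (-0.90 to -0.39) kept theirs. Among other genes named, signs turned for Prx2540-1 (-0.10 to 1.17), CG14407 (-0.59 to 0.10), Irc (-0.53 to 0.26), PHGPx (-0.60 to 0.43), Eip55E (-0.42 to 0.042), dj-1beta (-1.02 to 0.023), Men (-0.33 to 0.17), cnc (-0.051 to 1.05) and GstD1 (-0.97 to 0.11). Others kept their sign but moved by over 1.5 times, among them maf-S (-1.04 to -0.037), Eip71CD (-0.81 to -0.083), Rsod (0.13 to 0.94), Prx6005 (-0.74 to -0.13), Keap1 (0.064 to 0.37), Txl (0.44 to 0.93), Idh (-0.17 to -0.050), Cbs (-0.16 to -0.036) and dhd (1.98 to 5.22, and under the filter on low values without MJDtr-78Q library 1). The cause was not tested.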

Other observations

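Prx2540-2 is 1 of 3 genes for a peroxiredoxin of the 1-Cys type that lie close together, with Prx2540-1 and CG12896, and reads of such close copies may be split between them, so their separate values are uncertain. Prx2540-2 was at 8.89 and 9.50 in MJDtr-78Q libraries, against 7.93 and 7.42 in control libraries, with no overlap. Of all tested genes 14% likewise had both MJDtr-78Q libraries above both controls. Prx2540-1 was at 7.08 and 8.36 in MJDtr-78Q libraries and 7.26 and 7.10 in control libraries, and CG12896 at 5.51 and 6.75 in MJDtr-78Q libraries and 6.39 and 6.003 in control libraries, so both overlapped. The counts of the 3 genes summed gave 9.35 and 10.18 in MJDtr-78Q libraries and 8.91 and 8.53 in control libraries on the log2 scale, a difference of 1.05, with the groups apart. CG12896 and the sum were looked at after the values were seen, and the sum was not tested.

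The thioredoxin gene dhd, which is active in the female germline, was at 5.69 and 0.00 in MJDtr-78Q libraries, against 0.12 and 0.90 in control libraries, so that it was expressed in 1 library. It passed the filter on low values through MJDtr-78Q library 1 alone. TrxT, a testis thioredoxin gene beside it that was looked at after its values were seen, was at 2.98 and 0.00 in MJDtr-78Q libraries and 0.12 and 0.00 in control libraries. Of the ovary markers, osk was at 4.89 and 0.00 in MJDtr-78Q libraries and 1.198 and 0.00 in control libraries. The marker nos was at 2.98 and 0.00 in MJDtr-78Q libraries and 1.66 and 0.00 in control libraries. Vm26Ab went the other way, at 0.00 and 1.36 in MJDtr-78Q libraries and 0 in both control libraries. Cp36 was at 0 in every library. The summed counts of the 4 ovary markers in the table were 35.6 and 1.57 in MJDtr-78Q libraries and 3.45 and 0 in control libraries. Their part in the dhd values was not tested.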
